A study of Mus musculus with 8 samples.

Results

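The 10 genes described here encode enzymes and partners that write or erase DNA methylation, act with Polycomb complexes or feed these reactions, and they were taken by symbol from a table of read counts for 23337 genes. They are Tet1, Tet2 and Tet3, Dnmt1, Dnmt3a and Dnmt3b, Asxl1 and Ezh2, and Idh1 and Idh2. RNA sequencing had been done on bone marrow of C57BL/6 mice, aged 4 months per the series' design text, all of which carried JAK2V617F/+, an activating mutation of the kinase JAK2 on 1 allele, found in human myeloproliferative neoplasms. Plek2+/+ and Plek2-/- are the genotypes compared, the gene being that of a pleckstrin family protein important for red cell formation. Erythroblasts had been purified as TER119-positive cells, and progenitors as C-kit+ cells from the lineage-negative fraction, with 2 libraries in each of the 4 groups. The JAK2V617F/+ allele is shared by all 4 groups, so no comparison with a wild-type JAK2 was made. The labels do not state whether replicate libraries derive from different animals, so every p-value measures the spread between these libraries, which may be technical.

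In mammals, DNMT3A and DNMT3B place methyl groups on unmethylated cytosines, and DNMT1 copies the pattern to the daughter strand after replication. The TET dioxygenases oxidise methylated cytosine on the way to its removal, and need iron, oxygen and alpha-ketoglutarate. IDH1 in the cytosol and IDH2 in mitochondria make alpha-ketoglutarate from isocitrate, while the mutant human enzymes make a compound that inhibits the TET enzymes. EZH2 is the catalytic subunit of Polycomb repressive complex 2 (PRC2), which methylates histone H3 at silenced genes. ASXL1 is the partner of the deubiquitinase BAP1 in the PR-DUB complex, which takes ubiquitin off histone H2A. In human myeloproliferative neoplasms, TET2, DNMT3A, ASXL1, EZH2, IDH1 and IDH2 are known to be mutated beside JAK2, and TET1, TET3, DNMT1 and DNMT3B are their relatives.

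The genes lie on 8 chromosomes of GRCm38, Tet3 and Ezh2 both on chromosome 6 and Asxl1 and Dnmt3b both on chromosome 2. Tet2 spans chr3:133463679-133545139 on the minus strand, Dnmt3a chr12:3806007-3914443 on the plus strand, Dnmt3b chr2:153649450-153687730 on the plus strand, Dnmt1 chr9:20907209-20959888 on the minus strand and Idh1 chr1:65158616-65186500 on the minus strand. RefSeq's promoter table for GRCm38.p6 held 15 windows for the 10 genes. The 250 bases before 3 of the annotated starts are shown because they belong to Tet2, Dnmt3a and Dnmt3b, genes of clearly lower levels in erythroblasts; capitals mark a GC box (GGGCGG) on either strand.
Tet2: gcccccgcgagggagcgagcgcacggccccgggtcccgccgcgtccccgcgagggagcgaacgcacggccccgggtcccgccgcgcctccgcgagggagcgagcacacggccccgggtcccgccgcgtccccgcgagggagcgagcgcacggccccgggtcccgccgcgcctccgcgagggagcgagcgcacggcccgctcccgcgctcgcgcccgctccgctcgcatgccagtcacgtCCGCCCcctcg
Dnmt3a: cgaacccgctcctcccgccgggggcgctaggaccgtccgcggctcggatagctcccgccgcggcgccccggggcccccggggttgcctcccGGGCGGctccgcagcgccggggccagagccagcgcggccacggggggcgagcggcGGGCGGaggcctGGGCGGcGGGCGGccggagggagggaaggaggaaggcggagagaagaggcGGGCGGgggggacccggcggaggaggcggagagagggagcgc
Dnmt3b: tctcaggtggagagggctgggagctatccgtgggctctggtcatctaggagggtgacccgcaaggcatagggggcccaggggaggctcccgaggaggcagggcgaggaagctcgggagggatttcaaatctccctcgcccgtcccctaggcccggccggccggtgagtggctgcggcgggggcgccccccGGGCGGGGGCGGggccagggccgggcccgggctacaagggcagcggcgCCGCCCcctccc
The Tet2 window is chr3:133544391-133544640 on the minus strand, inside the annotated gene and before a downstream start, and holds 51 CpG sites, more than in 99.9% of all promoters in the table. The Dnmt3a window, chr12:3806730-3806979, holds 38 CpG sites and 5 GC boxes, and the Dnmt3b window, chr2:153649199-153649448, holds 21 CpG sites and 3 GC boxes. GC boxes occurred in 12 of the members' 15 windows; the other 3 were the 1 window of Ezh2 and 2 of those of Dnmt1. The share was 42.6% over 21262 protein-coding windows. A CCAAT box on either strand was found in 6 of 15 windows, against 35.4% of protein-coding windows, and an E2F site (TTTGGCGC, TTTCCCGC, TTTGCCGC or TTTCGCGC) in 1, that of Dnmt1, against 2.35%. GATA motifs (AGATAA or TGATAA) were in none of the 15, against 14.6%. These are descriptions of letters, not of binding.

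The libraries held 16038035 to 23521726 reads counted to genes. Labels and markers were checked before the members were read. Plek2 stood at 108 and 129 CPM (read counts per 1e6 reads of the library total, after TMM scaling) in erythroblasts labelled Plek2+/+ and at 48.2 and 53.1 in those labelled Plek2-/-, a log2 change of -1.21 (edgeR quasi-likelihood test, adjusted p = 9.918e-05). In progenitors it ran against the label: 1.36 and 0.708 CPM in Plek2+/+ and 5.06 and 5.67 in Plek2-/- (log2 change 2.47, edgeR adjusted p = 0.002535), so "Plek2-/-" below means the libraries so labelled, and which part of Plek2 was deleted is not given in the labels. Xist, made from the inactive X, stood at 2523 to 3044 CPM in all 4 Plek2+/+ libraries and at 2.13 to 3.6 in all 4 Plek2-/- libraries, and Ddx3y, a Y-linked gene, at no more than 0.235 CPM in the former and 117 to 280.4 CPM in the latter, so sex and genotype label cannot be told apart. The summed markers of erythroblasts took 8.14% to 9.67% of the counts in erythroblasts and 0.145% to 0.166% in progenitors. Hbb-b1 and Hba-a1 were listed at 0 in all 8 libraries, Hba-a2 at no more than 4 reads and Hbb-b2 at no more than 1. The only globin entry of the list with more reads was Beta-s, at 875798 to 1270641 in the erythroblast libraries, so the sum measures the globins in part only. A list of 12 neutrophil genes, none at 0 in any group, took 1.51% to 1.67% of counts in Plek2+/+ erythroblasts, 1.03% to 1.15% in Plek2-/- erythroblasts, 0.589% to 0.990% in Plek2+/+ progenitors and more in Plek2-/- progenitors.

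All 10 members passed the filter on low counts in every comparison. Within each genotype, 8 of the 10 had lower levels in both erythroblast libraries than in both progenitor libraries, and Dnmt1 and Ezh2 had higher ones. Of all genes tested, 89.1% in Plek2+/+ and 87.9% in Plek2-/- also had no overlap between the populations. With edgeR and Benjamini-Hochberg adjustment over 13365 genes, 7 members were called lower, 2 higher and 1 neither in Plek2+/+, and 8 lower and 2 higher in Plek2-/-. Most genes were called in these contrasts, 73.8% in Plek2+/+ and 76.7% in Plek2-/-, so the count of called members is no result about them. The members' median log2 difference was -0.85 in Plek2+/+ and -0.99 in Plek2-/-, beside -0.06 and -0.07 over all genes. Scaling by library totals alone moved the median of all genes to -0.87 and -0.86, and the split of all called genes from 4818 higher and 5047 lower to 2111 higher and 9171 lower in Plek2+/+. With that scaling no member was called higher and 9 lower in Plek2+/+, and 1 higher and 9 lower in Plek2-/-. All 12 neutrophil markers were called higher in erythroblasts than in progenitors in Plek2+/+ and lower in Plek2-/-. Of 10 monocyte and macrophage markers, 7 were called higher and 3 lower in each genotype (median log2 difference 2.83 in Plek2+/+ and 2.61 in Plek2-/-). Of 6 primary granule genes, 5 were lower and 1 higher in Plek2+/+, and all 6 were lower in Plek2-/-. All 11 stem and progenitor markers were lower in both genotypes. The part of these cell types in the members' differences was not tested. In bulk samples such as these, fewer cells of a type and less RNA per cell cannot be told apart.

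**Figure D1:**
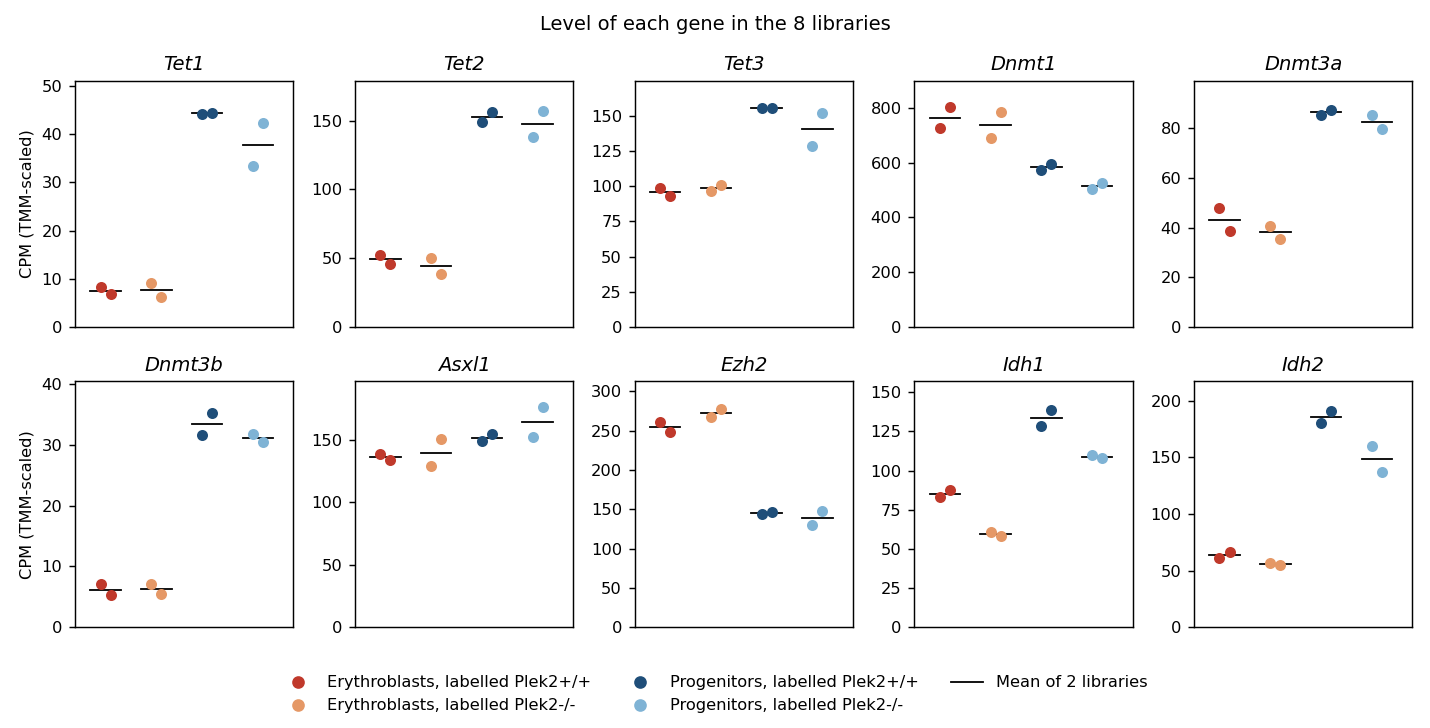
Level of each of the 10 genes in each of the 8 libraries, in TMM-scaled CPM on axes that start at 0, with points for libraries coloured by group and a line at the mean of 2. Tet1, Tet2, Dnmt3a, Dnmt3b and Idh2 stand well apart between erythroblasts and progenitors, while Asxl1 lies between 129 and 177 CPM in all 8.

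Of the TET genes, Tet1 differed most between the populations and Tet3 least. Tet2, the TET gene most often mutated in human myeloid disease, stood at 52.5 and 46.0 CPM in Plek2+/+ erythroblasts, 49.9 and 38.8 in Plek2-/- erythroblasts, 149 and 156 in Plek2+/+ progenitors and 138 and 157 in Plek2-/- progenitors. Every erythroblast library was below every progenitor library. The log2 difference was -1.63 (SE 0.11, edgeR adjusted p = 3.072e-08) in Plek2+/+ and -1.74 (SE 0.12, adjusted p = 1.705e-08) in Plek2-/-. Tet1, the relative best known from embryonic stem cells, was scarce in erythroblasts, at 8.26, 6.79, 9.155 and 6.25 CPM in Plek2+/+ replicates 1 and 2 and Plek2-/- replicates 1 and 2. Its progenitor levels, in the same order, were 44.2, 44.5, 33.5 and 42.3 CPM. The 2 sets did not overlap, and the log2 difference was -2.55 (SE 0.17, edgeR adjusted p = 1.593e-08) in Plek2+/+ and -2.31 (SE 0.17, adjusted p = 4.424e-08) in Plek2-/-. Tet3 stood at 98.5, 93.3, 96.6 and 100.5 CPM in the erythroblast libraries and at 156, 155.5, 128.5 and 152 CPM in the progenitor libraries. Here the gap was smaller than for the other two, with log2 differences of -0.70 (SE 0.09, edgeR adjusted p = 9.708e-06) and -0.51 (SE 0.09, adjusted p = 0.0001473).

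The maintenance enzyme and the de novo enzymes of DNA methylation moved in opposite directions. Dnmt1 stood at 725, 801.5, 691 and 786.5 CPM in erythroblasts and 574.5, 597, 504.0 and 525 CPM in progenitors, in the same order of libraries. All 4 erythroblast libraries were above all 4 progenitor libraries, with log2 differences of 0.38 (SE 0.09, edgeR adjusted p = 0.002105) in Plek2+/+ and 0.52 (SE 0.09, adjusted p = 0.0001743) in Plek2-/-. This direction rests on the scaling: with library totals alone it turned to -0.43 and -0.26. Relative to the median of all genes it was 0.44 and 0.59 under both scalings. A change of scaling moves all genes nearly alike, so these relative values are no check on the direction. Dnmt3a fell between progenitors and erythroblasts, from 85.6, 87.5, 85.5 and 79.6 CPM to 47.7, 38.7, 40.9 and 35.6 CPM. Its log2 differences were -1.0 (SE 0.11, edgeR adjusted p = 1.777e-06) and -1.11 (SE 0.11, adjusted p = 6.329e-07), with no overlap between populations. Dnmt3b went from 31.5, 35.2, 31.7 and 30.5 CPM in progenitors to 7.04, 5.29, 7.04 and 5.51 CPM in erythroblasts, where 78 to 115 reads were counted per library. Each genotype showed about the same size, -2.43 (SE 0.15, edgeR adjusted p = 8.147e-09) in Plek2+/+ and -2.32 (SE 0.15, adjusted p = 1.431e-08) in Plek2-/-.

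Ezh2 and Asxl1, the members of the Polycomb system, differed from one another. For Ezh2 the erythroblast libraries held 260.3, 248, 267 and 277 CPM and the progenitor libraries 144, 146, 129.7 and 148 CPM. Its log2 differences of 0.81 (SE 0.08, edgeR adjusted p = 1.121e-06) and 0.97 (SE 0.08, adjusted p = 1.58e-07) became -0.01 and 0.18 with library totals alone. Values relative to the median of all genes, 0.86 and 1.04 here, hardly move with the scaling and are no check on the direction. Asxl1 was nearly level, at 139, 134, 129 and 151 CPM in erythroblasts and 149, 155, 152 and 177 CPM in progenitors. Within each genotype its populations did not overlap, but a Plek2-/- erythroblast library lay above a Plek2+/+ progenitor library. In Plek2+/+ it was not called (log2 difference -0.16, SE 0.09, edgeR adjusted p = 0.1489), although it was in a fit of those 4 libraries alone (-0.15, adjusted p = 0.03778). With library totals alone the differences were -0.97 and -1.02, or -0.10 and -0.16 relative to the median of all genes, as under TMM. In Plek2-/- it was called at -0.23 (SE 0.09, adjusted p = 0.03562), a call lost in DESeq2 (adjusted p = 0.0856), with median-ratio factors (0.0698), with the authors' size factors (0.0649), in a fit of the 4 libraries alone (0.0812) and on leaving out Plek2-/- erythroblast replicate 1 (0.358) or Plek2-/- progenitor replicate 2 (0.296). Exons of Asxl1 overlap those of 2500004C02Rik, also among the genes counted, on the opposite strand. The strand setting of the counting is not given in the sources used here, so whether reads of this pair were kept apart is not known. Annotated genes on the opposite strand also overlap exons of Dnmt3a, Ezh2 and Tet2. Those genes were not among the genes counted, and whether their reads were added to the members is not known.

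Both isocitrate dehydrogenases were lower in erythroblasts. The mitochondrial enzyme Idh2 stood at 61.0, 66.7, 56.4 and 55.2 CPM in erythroblasts and 180.1, 191, 160.3 and 137 CPM in progenitors, with log2 differences of -1.54 (SE 0.09, edgeR adjusted p = 5.867e-09) and -1.41 (SE 0.09, adjusted p = 1.374e-08). The cytosolic enzyme Idh1 stood at 83.2, 87.4, 61.0 and 58.0 CPM in erythroblasts and 129, 139, 109.8 and 108 CPM in progenitors. Its log2 differences were -0.65 (SE 0.08, edgeR adjusted p = 5.549e-06) and -0.87 (SE 0.08, adjusted p = 3.426e-07). Neither gene had overlapping levels between the populations.

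**Figure D2:**
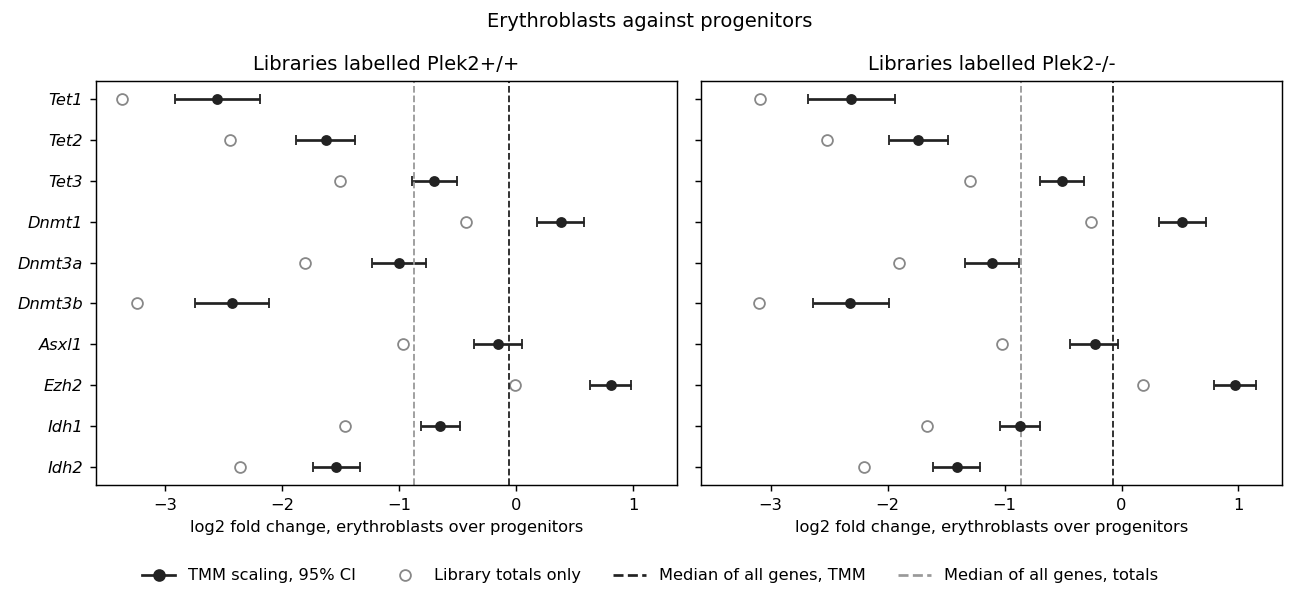
Log2 difference, erythroblasts minus progenitors, of each member in Plek2+/+ and Plek2-/- libraries, with 95% confidence intervals; filled points use TMM scaling, hollow points library totals alone, and dashed lines the medians of all genes. Dnmt1 and Ezh2 lie above zero with TMM, and Dnmt1 lies below it with totals alone (-0.43 and -0.26).

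Ratios between pairs of members, taken from the counts within each library, do not depend on how libraries are scaled. The 7 pairs were chosen after the levels were seen, so the ratios are given as a description of 4 erythroblast and 4 progenitor libraries, with no test. Tet3 counts were 1.875 to 2.588 times those of Tet2 in erythroblasts and 0.931 to 1.04 times in progenitors, a 2.12-fold difference. The Dnmt1 to Dnmt3a ratio was 15.2 to 22.1 in erythroblasts and 5.89 to 6.82 in progenitors, a 2.85-fold difference. Dnmt3b counts were 0.137 to 0.172 of those of Dnmt3a in erythroblasts and 0.368 to 0.403 in progenitors, 2.5-fold lower. For Ezh2 to Asxl1 the ranges were 1.84 to 2.07 and 0.835 to 0.968, and for Ezh1, the other catalytic subunit of PRC2, to Ezh2 they were 0.299 to 0.324 and 0.253 to 0.265. Idh1 to Idh2 ratios were 1.365 and 1.31 in Plek2+/+ erythroblasts, 1.08 and 1.05 in Plek2-/- erythroblasts and 0.685 to 0.786 over the progenitors. Tet1 to Tet2 was 0.1475 to 0.183 against 0.242 to 0.296. The populations did not overlap in any of the 7, which is no result about these pairs, since they were chosen with the levels known.

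Per kilobase of exon, the order of the members was much the same in both populations at its ends, with Dnmt1 highest and Tet1 lowest. In Plek2+/+ erythroblasts the mean level per kilobase was 103.5 CPM for Dnmt1, followed by Ezh2 at 38.1, Idh1 at 30.8, Idh2 at 24.7, Asxl1 at 18.3, Tet3 at 5.74, Tet2 at 2.92, Dnmt3a at 2.60, Dnmt3b at 1.21 and Tet1 at 0.487. Among these neighbours only Tet2 and Dnmt3a overlapped between their libraries. In Plek2+/+ progenitors Dnmt1 at 79.4 CPM per kilobase was followed by Idh2 at 71.6, Idh1 at 48.2, Ezh2 at 21.8, Asxl1 at 20.4, Tet3 at 9.32, Tet2 at 9.06, Dnmt3b at 6.54, Dnmt3a at 5.20 and Tet1 at 2.87, with no neighbours overlapping. In Plek2-/- progenitors Asxl1 and Ezh2 overlapped, as did Tet2 and Tet3, and in Plek2-/- erythroblasts Idh2 and Idh1 overlapped, as did Tet2 and Dnmt3a. The order also depends on the length used. By the longest transcript of each gene, Tet2 was above Tet3 and Dnmt3a above Dnmt3b in Plek2+/+ progenitors, as given below.

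Within each family, shares per length showed the same shift. Tet3 made up 62.8% ± 1.43 (SD, n = 2) of TET transcripts in Plek2+/+ erythroblasts and 65.5% ± 4.96 (SD, n = 2) in Plek2-/- erythroblasts, against 43.9% ± 0.646 and 42.9% ± 0.345 in the matching progenitors. Tet2 made up 31.9% and 29.0% in erythroblasts and 42.6% and 44.6% in progenitors. Dnmt3b was 1.135% and 1.20% of the DNMT transcripts in erythroblasts and 7.17% and 7.54% in progenitors, above Dnmt3a there, at 5.71% and 6.15%. That last order depends on transcript length: in an alternative added after the data were seen, by the longest transcript of each gene, Dnmt3a was above Dnmt3b in progenitors, at 7.68% and 8.25% against 6.63% and 6.97%, and so was Tet2 above Tet3, at 49.0% and 50.9% against 42.0% and 40.8%.

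**Figure D3:**
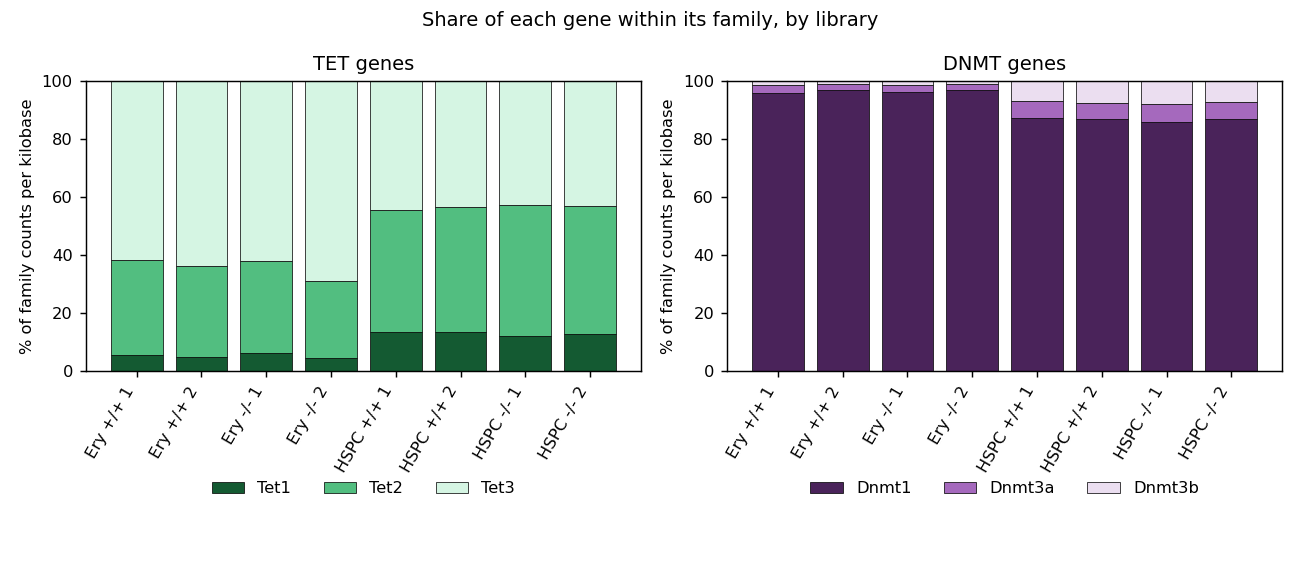
Share of each TET gene (left) and DNMT gene (right) in its family's length-scaled level, in percent, for each of the 8 libraries. Tet3 takes the largest share in all 4 erythroblast libraries, and Dnmt1 takes most of the DNMT share in all 8.

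The genes that work with the members were read in 9 lists of partners and neighbours. Over all 13365 genes, 36.0% were called higher and 37.8% lower in Plek2+/+ and 37.5% and 39.2% in Plek2-/-, and nothing particular to a list is read from a count near these shares. Of the 27 genes of DNA replication and S phase, 26 were higher in erythroblasts and none lower in Plek2+/+ (median log2 difference 1.38), and 20 higher and 1 lower with library totals alone. They included the cyclin Ccne1 (log2 2.51 in Plek2+/+ and 2.68 in Plek2-/-) and the transcription factor E2f2 (3.83 and 3.59). Among 18 genes of DNA methylation, 7 were higher and 4 lower (median 0.20), with Pcna, the replication clamp to which DNMT1 binds, at 1.82 and 1.90, and Usp7, a deubiquitinase that stabilises DNMT1, at 1.99 and 2.10. Of 15 TET partners and repair genes, 8 were higher and 6 lower (median 0.34), with the stress gene Gadd45a at 4.01 and 3.25 and the glycosylase Neil3 at 2.29 and 2.20. In Plek2-/- all 27 S-phase genes were higher (median 1.55), the DNA methylation list held 10 higher and 5 lower (median 0.32), and the TET list 7 higher and 6 lower (median -0.05). Relative to the median of all genes, the TET list lay at 0.40 in Plek2+/+ and 0.02 in Plek2-/-. All values of this kind are log2 differences of erythroblasts minus progenitors, called by edgeR, first in Plek2+/+ and then in Plek2-/-.

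Of 10 PRC2 genes other than Ezh2, 5 were higher and 4 lower (median 0.25), with Ezh1 2.19-fold and 2.35-fold higher and the accessory subunit Aebp2 at -1.0 and -0.72. The 21 PRC1 genes held 13 lower and 5 higher (median -0.39), with the chromobox subunit Cbx2 at -2.03 and -1.53. Of 9 PR-DUB genes, 5 were higher and 2 lower (median 0.19), with Ogt, the O-GlcNAc transferase, at 0.75 and 0.80 and Foxk1, a DNA-binding partner of BAP1, at -1.84 and -1.83. Ogt turned to -0.06 in Plek2+/+ with library totals alone. Among 24 genes of alpha-ketoglutarate metabolism, 11 were higher and 5 lower (median 0.11), with Glud1, the mitochondrial glutamate dehydrogenase, at -1.22 and -1.50 and Dlst, a subunit of the alpha-ketoglutarate dehydrogenase complex, at 0.82 and 0.97. Other demethylases that use alpha-ketoglutarate had 6 higher and 5 lower of 15 (median -0.11), with the histone demethylases Kdm4a at 1.02 and 1.02 and Kdm6b at -1.54 and -1.73. Other genes mutated in human myeloproliferative neoplasms had 10 higher and 12 lower of 24 (median -0.34), with the erythroid and megakaryocytic factor Nfe2 at 2.41 and 2.29 and the phosphatase Ppm1d at 2.46 and 2.47. In Plek2-/- the higher and lower counts were 5 and 4 for PRC2, 4 and 11 for PRC1, 6 and 3 for PR-DUB, 15 and 3 for metabolism, 6 and 5 for the demethylases and 11 and 12 for the other mutated genes. With library totals alone the numbers called higher in Plek2+/+ were 5 of the DNA methylation list, 2 of the TET list, 1 of PRC2, 1 of PRC1, none of PR-DUB, none of the metabolism list, 1 of the demethylases and 5 of the other mutated genes.

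**Figure D4:**
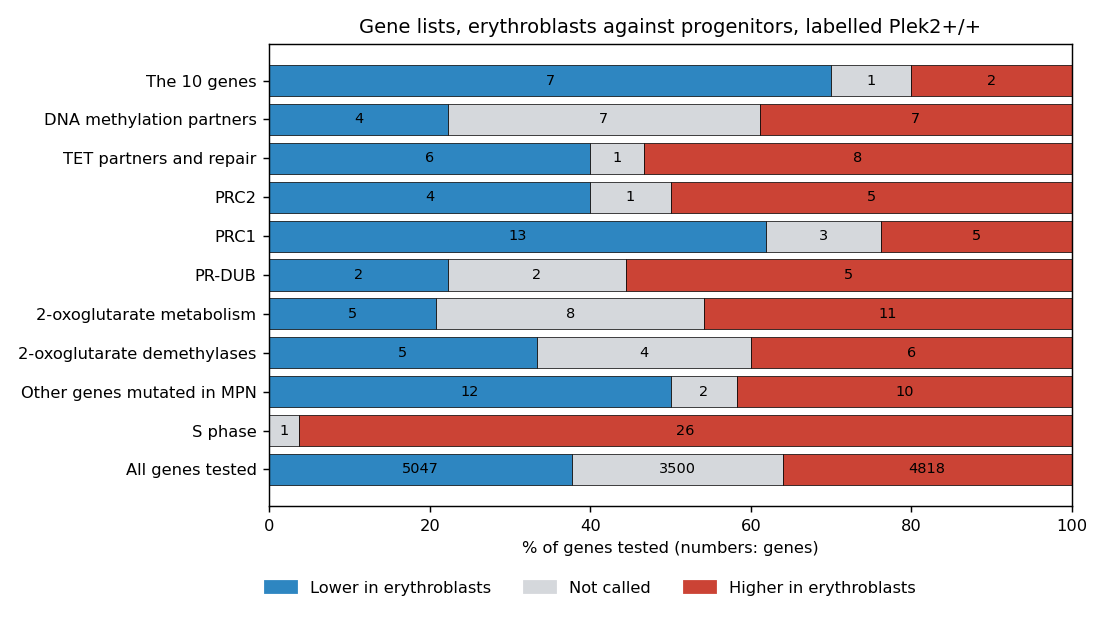
For each of the 9 lists and the members, the number of genes called lower, not called and called higher in erythroblasts than in progenitors of Plek2+/+ mice. The S-phase list has 26 of its 27 genes called higher, and the PRC1 list 13 of 21 called lower, beside 36.0% called higher and 37.8% called lower over all genes.

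Between genotypes in erythroblasts, Idh1 was the only member called. It stood at 83.2 and 87.4 CPM in Plek2+/+ and 61.0 and 58.0 CPM in Plek2-/-, so that the groups did not overlap. The log2 change was -0.51 (SE 0.09, 95% confidence interval -0.71 to -0.31), with an edgeR adjusted p of 0.01455, beside 2.84% of the 12241 genes tested that were called. Over all genes, 22 were called higher and 326 lower in Plek2-/-, so the direction is that of most calls. Without Plek2+/+ erythroblast replicate 1 or 2 the log2 change of Idh1 was within -0.55 to -0.48, but its edgeR adjusted p was 0.127 or 0.137. The number of all called genes, 348, fell or rose on leaving out 1 library, depending on which was left out. Idh2 was also lower in both Plek2-/- libraries and was not called (log2 change -0.18, 95% confidence interval -0.39 to 0.03, edgeR adjusted p = 0.4203). Ezh2 was slightly higher in both, at a log2 value of 0.11, and was not called. Over all genes tested, 45.5% did not overlap between these libraries. The other 7 members overlapped between genotypes, with log2 values of -0.15 for Tet2, -0.17 for Dnmt3a, 0.05 for Tet3, 0.04 for Asxl1, -0.04 for Dnmt1, 0.03 for Tet1 and 0.02 for Dnmt3b. Neutrophil markers moved in the same comparison: 9 of 12 were called lower in Plek2-/- erythroblasts, and their part in the Idh1 result was not tested. B cell markers summed to 158 to 181 CPM in Plek2+/+ and 75.3 to 99.9 CPM in Plek2-/- erythroblasts, and 5 of 9 were called lower. Mast cell, basophil and eosinophil markers summed to 2095 to 2498 and 890.4 to 1326 CPM, with 4 of 8 called lower and 4 not called. They did not move as 1: the eosinophil gene Epx went from 381 and 435 to 199 and 187 CPM. The basophil gene Mcpt8 overlapped, at 23.1 and 27.6 CPM in Plek2+/+ and 27.9 and 22.3 in Plek2-/-.

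Of the 166 partner and neighbour genes in the 9 lists, 158 were tested between genotypes in erythroblasts, and edgeR called 1.27% of them beside 2.84% of all genes, among them the glutamate dehydrogenase gene Glud1. Glud1 stood at 96.6 and 94.96 CPM in Plek2+/+ and at 75.8 and 63.6 CPM in Plek2-/- (log2 change -0.45, edgeR adjusted p = 0.03282), with no overlap between genotypes. The call was lost with library totals alone (adjusted p = 0.0511) and on leaving out Plek2+/+ erythroblast replicate 1 (0.252), Plek2+/+ replicate 2 (0.163) or Plek2-/- replicate 2 (0.163). The most abundant genes of other lists were not called, at log2 values of 0.15 for Usp7, 0.13 for Ogt, 0.10 for Suz12, 0.11 for Hcfc1, 0.17 for Kdm5a, 0.04 for Sf3b1 and 0.13 for Rrm1.

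Between genotypes in progenitors, none of the 10 members was called by edgeR, DESeq2 or limma-voom, beside 4.91% of 13168 genes called by edgeR. At an unadjusted p under 0.05, edgeR had 2 of the 10, the isocitrate dehydrogenases, beside 25 of the 161 partner and neighbour genes tested. Nothing particular to the members is read from that count. Idh1 stood at 129 and 139 CPM in Plek2+/+ and 109.8 and 108 in Plek2-/- (log2 value -0.25, SE 0.06, edgeR adjusted p = 0.07279), and Idh2 at 180.1 and 191 against 160.3 and 137 (-0.28, SE 0.08, adjusted p = 0.1257). In both genes the 2 genotypes did not overlap. Also without overlap, at lower levels in Plek2-/-, were Tet1 (log2 value -0.18), Dnmt1 (-0.15), Tet3 (-0.11) and Dnmt3a (-0.03). Such separation was common: 52.2% of all genes tested did not overlap between these 2 pairs of libraries, 33.2% being lower in Plek2-/-. Tet2 at -0.01, Dnmt3b at -0.06, Ezh2 at -0.02 and Asxl1 at 0.16 overlapped. The Plek2-/- progenitor libraries differed more from each other than those of other groups (chi-square per degree of freedom 16.5, against 5.92 to 9.59), and the count of called members moved with them: without replicate 1, 3 members were called (Asxl1 higher, Idh1 and Idh2 lower), and without replicate 2, 5 were (Tet1, Tet3, Dnmt1, Idh1 and Idh2, all lower). With all libraries kept, Idh1 was called with library totals alone (edgeR adjusted p = 0.03524), with the authors' size factors (0.04764), with no filter on low counts (0.02485) and in 1 fit of all 8 libraries (0.04557), and Idh2 with no filter (0.009817). The fits that leave out a library rest on 1 library in that group, assumed to vary like the others. All 12 neutrophil markers were called higher in Plek2-/- progenitors, summing to 0.589% to 0.990% of counts in Plek2+/+ and 2.5% to 3.31% in Plek2-/-. Mast cell, basophil and eosinophil markers summed to 2432 to 3125 and 1031 to 2090 CPM, with all 8 not called. The part of these cell types in the members' differences was not tested.

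Among 161 partner and neighbour genes tested in progenitors, edgeR called 3, or 1.86%, beside 4.91% of all genes. All 3 were higher in Plek2-/- and belong to the GADD45 family, stress-induced proteins linked to DNA repair and demethylation. Over all genes, 593 were called higher and 53 lower in Plek2-/- progenitors, so nothing particular is read from that direction. Gadd45a stood at 18.2, 18.1, 32.6 and 34.3 CPM (1.89-fold, edgeR adjusted p = 0.00166), Gadd45g at 10.9, 6.91, 18.1 and 18.6 CPM (2.15-fold, adjusted p = 0.01476) and Gadd45b at 21.4, 22.0, 28.8 and 27.9 CPM (log2 change 0.43, adjusted p = 0.02478), Plek2+/+ libraries first. None of the 3 overlapped between genotypes. Neutrophil markers were also called higher in this comparison, and their part in these differences was not tested. In the other lists the most abundant genes lay within -0.10 and 0.08 and were not called: Usp7 at 0.07, Suz12 at 0.00, Phc3 at 0.01, Hcfc1 at -0.06, Dlst at 0.01, Kdm5a at 0.08, Sf3b1 at 0.07 and Rrm1 at -0.10.

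**Figure D5:**
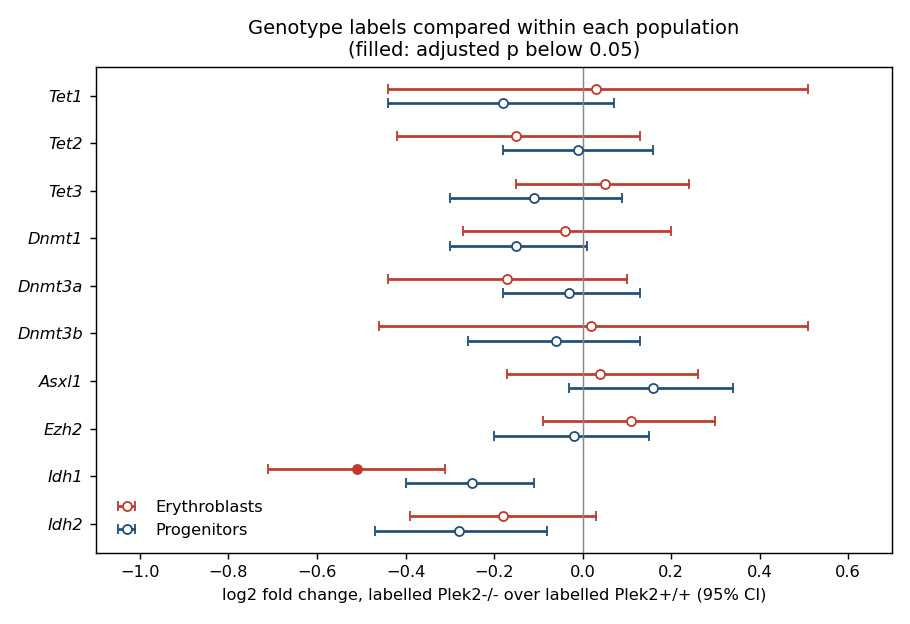
Log2 change, Plek2-/- minus Plek2+/+, of each member in erythroblasts and progenitors with 95% confidence intervals; filled points were called. Idh1 in erythroblasts, at -0.51, is the only filled point.

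Whether the genotype difference was itself different between erythroblasts and progenitors was tested as an interaction. None of the 10 members was called by edgeR, DESeq2 or limma-voom, beside 5.55% of 13365 genes called by edgeR. No member had an unadjusted edgeR p under 0.05, beside 32 of the 161 partner and neighbour genes tested. The share over all genes at that threshold is not given here, so nothing particular to the members is read from this. Idh1, the nearest, had a difference of -0.22 on the log2 scale (edgeR adjusted p = 0.307), so its call in erythroblasts alone does not show a difference between the populations.

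The genes with profiles most like each member over the 8 libraries were ranked by the root mean square difference in centred log2 CPM among 13365 genes. Ezh2 had the closest neighbour, Ccnt1 at 0.0255 log2 units, then Dot1l at 0.0504. Dnmt1 was nearest to Fam133b (0.0362) and Alkbh5 (0.0406), Asxl1 to Tbc1d8b (0.0432) and Exoc1 (0.0465), and Tet3 to Pogz (0.0438) and Lrp6 (0.0444). For Dnmt3a they were Orai3 (0.0515) and Lnx2 (0.0554), for Idh2 Zfp629 (0.0549) and Pisd (0.0673), for Tet2 Nlrc5 (0.0571) and Dock10 (0.0759), and for Idh1 Rab19 (0.0711) and Pptc7 (0.0758). Dnmt3b had Tmem150b (0.0634) and Fchsd2 (0.112), and Tet1 had Tmem150b (0.117) and C1qtnf6 (0.125), the widest pair of the 10. This likeness is a description over libraries that share 2 populations.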

How the data were processed

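Total RNA of 8 libraries had been sequenced, and the deposited table gives raw read counts per gene. Per the submitters' processing notes, the tools were STAR 2.5.2a, HTSeq 0.6.1pl, cutadapt 1.13 and DESeq2 1.14.1 and the build mm10, with no roles. The strand setting and gene annotation were not given in the sources used. A second deposited table holds a signal, the authors' counts divided by 1 size factor per library, and was used for those factors alone. Counts were tested with edgeR 4.0.16 in R 4.3.3 (TMM, default filter on low counts, quasi-likelihood test, Benjamini-Hochberg adjustment over all genes tested, threshold 0.05), within each population for the genotype label and in 1 fit of all 8 libraries for the populations and the interaction. Alternatives were other scalings and filters, DESeq2 1.42.0, limma-voom (limma 3.58.1), a replicate block and leaving out each library. Levels are CPM, computed here from the deposited counts over TMM-scaled totals, and per kilobase of exon of GENCODE vM21. On simulated data the test recovered 98.5% of 2-fold changes in erythroblasts, 99.0% in progenitors and 86.5% of interactions, and 3.43%, 13.2% and 6.49% of its calls were unchanged genes. The 200 changed genes were drawn above a minimum level, with as many rises as falls. Before changes were added, each simulated gene had 1 mean level in all groups, unlike these data, where most genes differ between the populations. The share for interactions therefore does not cover genes scarce in 1 population, such as Tet1 and Dnmt3b. Smaller changes, such as those of the members between genotypes, were not simulated. The edgeR biological coefficient of variation within groups came to 8.12% for erythroblasts and 7.17% for progenitors. The text names all members and, from each list and comparison, up to 2 called genes, those of smallest adjusted p, or the most abundant gene in a list without calls; Gadd45b, B cell markers, Plek2, Xist and Ddx3y were added with their values known. 1 gene that this rule names is not reported here. The members and lists were chosen with earlier results of these data known.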

Additional observations from a re-analysis of the deposited data

Results flagged for a closer look

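The genotype difference in erythroblasts minus that in progenitors, tested as an interaction with edgeR over 13365 genes, was called for Gadd45b (-0.69, adjusted p = 0.02123) and for Gadd45a, Gadd45g and Phf1. Of the 161 partner and neighbour genes tested, 3.11% were called, beside 5.55% of all genes. Over all genes the called differences were positive for 31 and negative for 711. Nothing particular to the lists is read from the number or direction of these calls. Gadd45a had a difference of -0.76 on the log2 scale (edgeR adjusted p = 0.001451): it stood at 299.9 and 286 CPM in Plek2+/+ and 304 and 332 in Plek2-/- erythroblasts, and rose in Plek2-/- progenitors, from 18.2 and 18.1 to 32.6 and 34.3 CPM. Gadd45g had a difference of -1.35 (adjusted p = 0.006795), at 15.8 and 19.9 CPM in Plek2+/+ against 15.1 and 14.1 in Plek2-/- erythroblasts. Phf1, an accessory subunit of PRC2, had a difference of -0.66 (adjusted p = 0.02812), at 30.7 and 26.4 against 22.0 and 24.4 CPM in erythroblasts and 14.9 and 15.4 against 19.0 and 19.9 in progenitors. The Phf1 call was lost with library totals alone (adjusted p = 0.0559) and without Plek2+/+ erythroblast replicate 1 (0.0728), Plek2+/+ progenitor replicate 1 (0.125) or 2 (0.108), or Plek2-/- progenitor replicate 2 (0.0793). Neutrophil markers were lower in Plek2-/- erythroblasts and higher in Plek2-/- progenitors, and their part in these differences was not tested. With 2 libraries in a group, no library could be tested as lying apart from the others.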

How the results depend on the processing

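Depth limits Tet1 and Dnmt3b most, with 78 to 135 reads per erythroblast library, and 2 libraries a group limit every test. The number of all genes called between genotypes in erythroblasts was 547 with the authors' size factors, 230 with library totals alone, 845 with no filter, 579 with a replicate block and 25 to 995 on leaving out 1 library. In progenitors it was 1315 with no filter and 239 to 2649 on leaving out 1 library, and for the interaction 1215 and 401 to 1175. Members called in progenitors numbered 1 with totals, with the authors' factors and in 1 fit of all 8 libraries, 2 with no filter and 0 to 5 on leaving out 1 library; in erythroblasts 0 to 1. The cause was not tested.

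With library totals alone, the population difference of Dnmt1 turned to -0.43 and -0.26, that of Ezh2 to -0.0074 and of Ogt to -0.062 in Plek2+/+. In the progenitor genotype comparison, uncalled values near 0 changed sign: Suz12 to 0.0008, 0.0053 and 0.0020 with median-ratio factors, no filter and a mean CPM of at least 1; Phc3 to -0.0461, -0.0229 and -0.0278 and Dlst to -0.0499, -0.0280 and -0.0326 with totals, the authors' factors and 1 fit of all libraries. Leaving out 1 library also turned the sign of uncalled values. In the erythroblast genotype comparison the log2 values ranged from -0.27 to 0.28 for Tet1, -0.34 to 0.019 for Tet2, -0.0090 to 0.091 for Tet3, -0.14 to 0.046 for Dnmt1, -0.18 to 0.25 for Dnmt3b, -0.082 to 0.14 for Asxl1, -0.0024 to 0.19 for Suz12 and -0.026 to 0.099 for Sf3b1. In progenitors they ranged from -0.10 to 0.075 for Tet2, -0.23 to 0.0093 for Tet3, -0.081 to 0.026 for Dnmt3a, -0.14 to 0.022 for Dnmt3b, -0.12 to 0.063 for Ezh2, -0.027 to 0.026 for Suz12, -0.075 to 0.095 for Phc3, -0.16 to 0.023 for Hcfc1 and -0.015 to 0.033 for Dlst. The interaction ranged from -0.083 to 0.44 for Tet1, -0.33 to 0.0080 for Tet2, -0.020 to 0.19 for Dnmt1, -0.11 to 0.27 for Dnmt3b, -0.26 to 0.033 for Asxl1 and -0.0050 to 0.24 for Idh2.

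The replicate numbers were not shown to pair the libraries: the deviations of same-numbered libraries correlated at 0.0343 between genotypes in erythroblasts and -0.0763 in progenitors, and between populations at 0.0461 in Plek2+/+ and 0.102 in Plek2-/-. With the replicate block, 579 genes were called in erythroblasts and 813 in progenitors, and Idh1 in erythroblasts had an edgeR adjusted p of 0.00905.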
